A study of Mus musculus with 20 samples.

Results

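Complement and coagulation are plasma protein cascades whose components are made mostly by the liver. In the complement cascade, C1q or the mannose-binding lectins recognise a surface, the proteases of the C1 and lectin complexes cut C4 and C2, C3 is cleaved, and C5 to C9 then assemble into the membrane attack complex, which opens pores in the target membrane. In the coagulation cascade, a chain of proteases ends in thrombin (encoded by F2), which turns fibrinogen into fibrin, while inhibitors and the plasmin system limit and dissolve the clot. The genes described here are a list of 50 genes of both cascades, taken by name. C1s does not occur in the files under that symbol, which left 49 genes, 25 of complement and 24 of coagulation, among 36128 genes with values. These 49 members were described here in liver RNA of male and female mice of 2 strains.

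The data are polyA RNA-seq libraries of 20 livers, 5 each of B6 males, B6 females, CAST males and CAST females. C57BL/6J (B6) is a common laboratory strain, and CAST/EiJ (CAST) was bred from wild-caught mice. All mice came from 1 supplier, were labelled as 8 weeks old, and carried no treatment or engineered allele. Each library is 1 mouse. The strain entry of 10 libraries (the B6 females and the CAST males) names the other strain, and the titles were followed. Reads counted on genes summed to 7969482 to 35328573 per library, with the smallest library among the CAST males. Expression is given as FPKM (fragments per kilobase of exon, scaled to the reads mapped in the library), which can be compared between genes. Differences are log2 fold changes with their standard errors (SE) from edgeR's quasi-likelihood test on the counts, and a gene passed at an adjusted p under 0.05 (Benjamini-Hochberg over all genes tested). All 49 members had reads in both strains and entered every test.

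Liver identity was plain: 7 of the 8 hepatocyte markers listed for this check, among them Alb, were in the table and summed to 17017 to 29735 FPKM per liver. The members together took 3.49 to 6.29% of the summed FPKM of a library. The fibrinogen chains Fgb and Fgg were the most abundant members, with means over the 20 livers of 1167 and 1082 FPKM, followed by Fga (625), Pzp (616), which encodes a broad protease inhibitor of the macroglobulin family, and Vtn (572), which encodes vitronectin, an inhibitor of the membrane attack complex. Cfd, which encodes adipsin (factor D of the alternative pathway), a product of fat cells, was the least abundant at 0.269 FPKM.

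Of the 49 members, 4 passed with a fold change above 2 between the sexes in at least 1 strain, and all 4 encode terminal components of the membrane attack complex: C6, C8a, C8b and C9. Their promoters, 250 bases before to 50 bases after the RefSeq transcription start, are shown here because these are the members that passed with a fold change above 2. The sequences are those of the RefSeq promoter table for GRCm38.p6. Each occurred once, letter for letter and in the orientation of the gene, on its own chromosome of mm9, the build to which the authors mapped B6 reads. The places are chr15:4676960-4677259 (C6, plus strand), chr4:104548954-104549253 (C8a, minus strand), chr4:104438672-104438971 (C8b, plus strand) and chr15:6395096-6395395 (C9, plus strand). Other chromosomes were not searched, and the sequences of CAST promoters were not examined. Capitals mark matches on either strand to 4 motifs: TTCNNNGAA (the STAT5 motif), AGGTCA (the core motif of nuclear receptors), TTGCNNAA (the C/EBP motif) and GTTAAT (the core motif of HNF1), which do not overlap in these 4 windows.
C6: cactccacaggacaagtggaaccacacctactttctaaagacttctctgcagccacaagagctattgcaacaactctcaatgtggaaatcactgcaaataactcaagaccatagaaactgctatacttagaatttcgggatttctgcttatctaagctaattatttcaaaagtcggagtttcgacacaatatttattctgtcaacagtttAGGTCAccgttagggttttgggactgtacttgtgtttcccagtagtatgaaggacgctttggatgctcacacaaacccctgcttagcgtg
C8a: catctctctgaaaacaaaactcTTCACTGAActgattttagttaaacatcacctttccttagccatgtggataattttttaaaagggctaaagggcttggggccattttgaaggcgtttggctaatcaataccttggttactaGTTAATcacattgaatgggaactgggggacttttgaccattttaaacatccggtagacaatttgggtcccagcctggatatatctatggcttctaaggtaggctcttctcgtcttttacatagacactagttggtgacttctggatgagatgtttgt
C8b: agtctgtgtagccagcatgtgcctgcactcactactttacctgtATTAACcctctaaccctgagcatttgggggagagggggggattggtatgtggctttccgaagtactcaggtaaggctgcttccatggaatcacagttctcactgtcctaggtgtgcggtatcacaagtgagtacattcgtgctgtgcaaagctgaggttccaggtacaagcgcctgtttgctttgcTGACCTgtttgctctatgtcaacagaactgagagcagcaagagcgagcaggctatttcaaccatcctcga
C9: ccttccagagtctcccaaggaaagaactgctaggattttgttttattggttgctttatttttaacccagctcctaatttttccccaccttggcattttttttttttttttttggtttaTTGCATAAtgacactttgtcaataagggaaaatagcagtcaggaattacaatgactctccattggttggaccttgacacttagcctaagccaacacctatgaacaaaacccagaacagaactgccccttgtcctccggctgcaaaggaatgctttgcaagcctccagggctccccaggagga
The STAT5 motif occurred in the C8a promoter and in 8.3% of the 32851 promoters of that table. The nuclear receptor core occurred in those of C6 and C8b (16.3% of all promoters), the C/EBP motif in that of C9 (10.8%), and the HNF1 core in those of C8a and C8b (7.1%). Of the 49 members, 40 had a promoter in the table; 9 of these held the STAT5 motif, 17 the nuclear receptor core, 13 the C/EBP motif and 14 the HNF1 core. A match is a run of letters and does not show that a factor binds there.

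The first comparison was that of males and females within each strain. In B6, 17 of the 49 members passed, 8 higher in males and 9 higher in females, where 7.55% of the 25690 genes tested passed (3.99% higher in males and 3.56% higher in females). In CAST, 9 members passed, 6 higher in males and 3 higher in females, against a background of 5.65% of 24722 genes (2.35% higher in males and 3.3% higher in females). Among genes with a mean of at least 1 FPKM the backgrounds were higher, 14.8% in B6 and 10.8% in CAST. With a fold change above 2, 4 members passed in B6 (2.4% of all genes) and 2 in CAST (2.05%). The median log2 fold change of the members, male over female, was -0.06 in both strains, beside 0.02 in B6 and -0.01 in CAST over all genes.

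The same 7 members passed in both strains, each in the same direction: C6, C8a, C8b and C1ra were higher in males, and Mbl2, F7 and F13b were higher in females. Of all genes tested in both strains 1.96% did so, and 3.69% of those with a mean of at least 1 FPKM. A further 10 passed in B6 alone (C1qb, C1qc, C1rl, C2, C3, Cfp, Hc, C9, F5 and Kng2) and 2 in CAST alone (C4bp and Pros1). The test of the difference between the strains, the interaction of strain and sex, passed for 2 of these 12, C3 and C9, so a strain dependence of the sex difference was not shown for the other 10. The background of the interaction test was 2.28% of 25779 genes, and 5.19% of those with a mean of at least 1 FPKM.

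**Figure D1:**
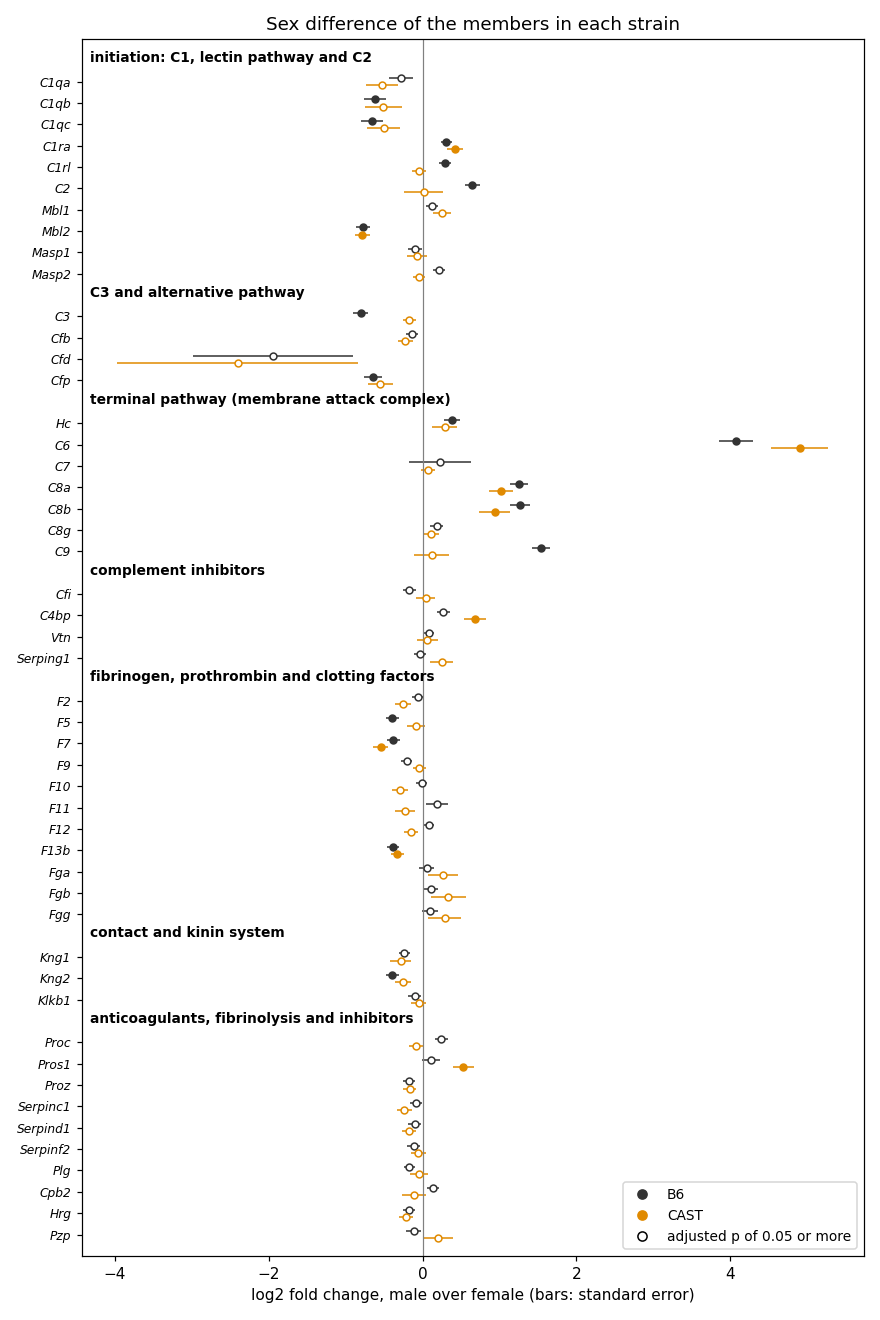
Log2 fold change of male over female expression for the 49 members in B6 (black) and CAST (orange), grouped by role; bars are standard errors, and filled points passed an adjusted p under 0.05. C6 stands far to the right in both strains, at 4.08 and 4.90, and C8a and C8b lie near 1 in both.

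Among the members that passed, the 4 with a fold change above 2 between the sexes all lay in the terminal pathway. Its 7 members are Hc (complement C5), C6, C7, the 3 chains of C8 (C8a, C8b and C8g) and C9. In B6, 5 of the 7 were higher in males, and in CAST 3 of the 7, beside 3.99% and 2.35% of all genes tested. C6 joins C5b as the first step of membrane attack complex assembly. It was expressed in B6 males at 44.9, 75.5, 58.7, 79.6 and 37.7 FPKM, and in B6 females at 4.13, 3.29, 5.26, 2.55 and 2.57 FPKM. In CAST males it was at 58.8, 59.5, 126, 42.8 and 69.3 FPKM, and in CAST females at 1.87, 1.599, 4.34, 0.790 and 2.65 FPKM. Every male liver of either strain was thus above every female liver by a wide margin. The log2 fold change was 4.08 (SE 0.22, adjusted p = 5.09e-10) in B6, or 16.9-fold, and 4.90 (SE 0.37, adjusted p = 3.06e-08) in CAST, or 29.9-fold. The interaction was -0.82 (SE 0.44, adjusted p = 0.407), so the larger value in CAST was within the error of the comparison.

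C8a and C8b encode the alpha and beta chains of C8, which insert into the membrane after C7. The genes lie tail to tail on chromosome 4, 11.1 kb apart (mm9 104438922 to 104477153 for C8b and 104488284 to 104549003 for C8a). C8a was at 105, 122, 113, 123 and 85.6 FPKM in B6 males and at 54.4, 48.9, 51.6, 41.8 and 36.6 FPKM in B6 females. In CAST, the males were at 141, 134, 159.7, 131 and 193 FPKM and the females at 78.2, 69.9, 92.7, 55.7 and 58.1 FPKM. The sexes did not overlap in either strain, and C8a was higher in males by 1.25 on the log2 scale in B6 (SE 0.11, adjusted p = 6.95e-07) and by 1.02 in CAST (SE 0.15, adjusted p = 0.000189). C8b was at 103, 123, 96.3, 114 and 81.7 FPKM in B6 males and at 51.2, 51.5, 47.0, 33.3 and 34.6 FPKM in B6 females. In CAST males C8b was at 172, 158, 240.5, 171 and 179.6 FPKM, and in CAST females at 115, 78.5, 137, 61.6 and 61.0 FPKM. The sexes were again apart in each strain, although the CAST females with 115 and 137 FPKM came close to the lowest CAST male. The difference was 1.27 (SE 0.13, adjusted p = 5.32e-06) in B6 and 0.94 (SE 0.20, adjusted p = 0.00614), or 1.92-fold, in CAST. The interaction did not pass for either gene (adjusted p = 0.68 for C8a and 0.656 for C8b).

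C8g, the gamma chain of C8, which is a lipocalin unrelated in sequence to the other chains and encoded on chromosome 2, had values of 99.3 ± 8.37 FPKM (SD, n = 5) in B6 males and 88.7 ± 7.15 in B6 females, and of 75.3 ± 9.13 in CAST males and 66.2 ± 8.58 in CAST females. Its log2 fold changes of 0.18 (adjusted p = 0.23) and 0.11 (adjusted p = 0.646) did not pass. The difference between the chains was not tested. Hc, which encodes C5, passed in B6 with 0.38 (SE 0.10, adjusted p = 0.0278), where the livers of the sexes overlapped, and stood at 0.29 (SE 0.16, adjusted p = 0.368) in CAST, and at 0.08 (adjusted p = 0.790) without CAST male 5. The call of Hc in B6 was lost when any of 4 single livers was left out.

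C9 forms the wall of the membrane attack pore and differed between the sexes in B6. It was at 191, 257, 192, 224 and 161 FPKM in B6 males and at 82.1, 70.7, 75.9, 67.4 and 61.4 FPKM in B6 females, with no overlap. In CAST, it was at 0.499, 0.420, 0.549, 0.524 and 0.347 FPKM in males and at 0.412, 0.342, 0.300, 0.492 and 0.465 FPKM in females, with overlapping livers. The log2 fold change was 1.54 (SE 0.11, adjusted p = 4.01e-08) in B6, or 2.91-fold, and 0.12 (SE 0.22, adjusted p = 0.853) in CAST. The interaction was 1.43 (SE 0.20, adjusted p = 8.45e-05). The CAST value rests on 12 to 62 reads per library, in contrast to 3608 to 30432 in B6.

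**Figure D2:**
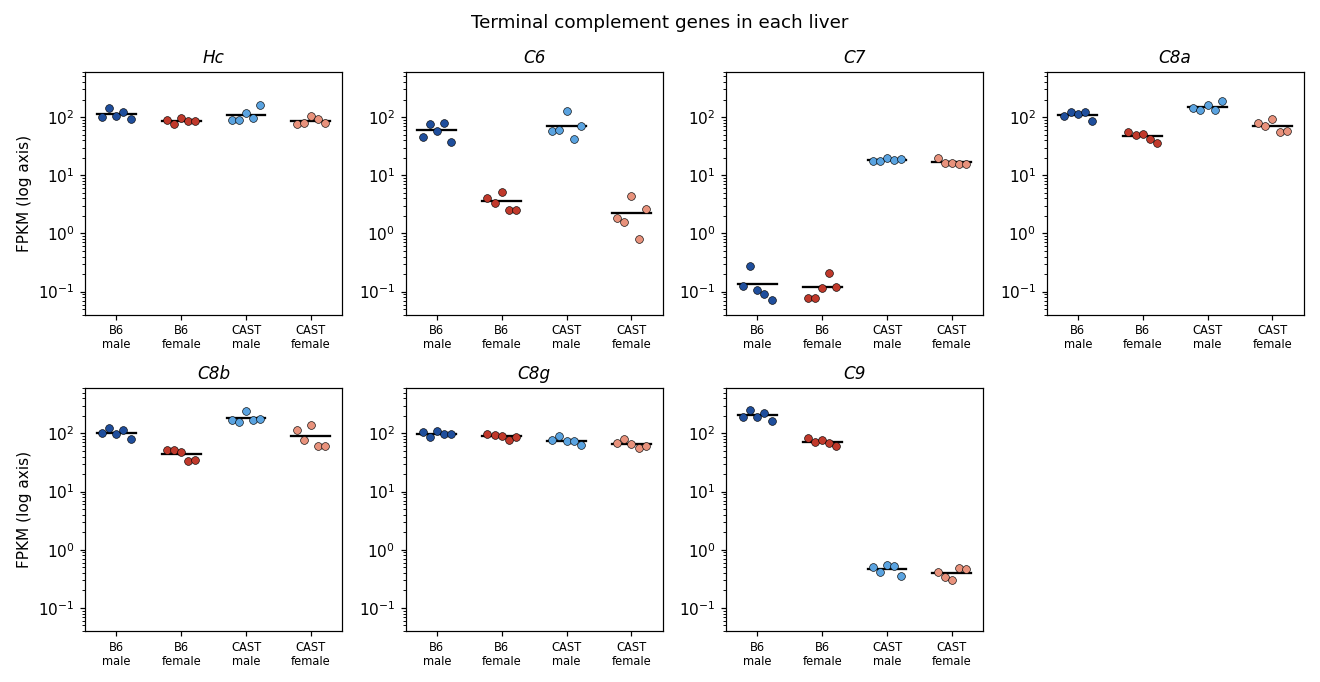
FPKM (log axis) of the 7 terminal complement genes in each of the 20 livers, by group; points are livers and lines are group means. Males and females separate in both strains for C6, C8a and C8b, and the strains lie far apart for C7 and C9 in both sexes.

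In the initiation group, which holds C1, the lectin pathway and C2, 6 of the 10 measured members passed for sex in B6, 3 in each direction, and 2 in CAST. Of all genes tested 7.55% passed in B6 and 5.65% in CAST, and of those with a mean of at least 1 FPKM 14.8% and 10.8%. Mbl2, a mannose-binding lectin that recognises microbial sugars, was higher in females of both strains. Its level was 99.1 ± 8.48 FPKM (SD, n = 5) in B6 males and 172 ± 15.5 in B6 females, and 80.0 ± 8.89 in CAST males and 130.0 ± 11.7 in CAST females. The log2 fold change was -0.78 in both strains (SE 0.09, adjusted p = 1.13e-05 in B6, and SE 0.10, adjusted p = 4.02e-05 in CAST). Mbl1, the other mannose-binding lectin, had log2 fold changes of 0.12 (adjusted p = 0.400) and 0.25 (adjusted p = 0.256). C1ra, which encodes the C1r protease, was higher in males, by 0.31 in B6 (SE 0.07, adjusted p = 0.0137) and by 0.42 in CAST (SE 0.11, adjusted p = 0.0227). The call of C1ra in CAST was lost without any of 4 single livers. C1rl, which encodes a C1r-like protease and lies 1.76 kb from C1ra, was higher in males by 0.29 in B6 (adjusted p = 0.0252), a call lost without any of 5 single livers.

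C2 encodes the protease that joins C4b in the classical C3 convertase. It was at 24.5, 30.8, 28.96, 28.2 and 21.8 FPKM in B6 males and at 18.02, 14.9, 17.6, 17.1 and 19.2 FPKM in B6 females. In CAST, it was at 0.196, 0.245, 0.188, 0.289 and 0.155 FPKM in males and at 0.216, 0.239, 0.166, 0.158 and 0.240 FPKM in females. Male and female B6 livers did not overlap, while those of CAST did. The log2 fold change was 0.65 (SE 0.09, adjusted p = 0.000185) in B6 and 0.01 (SE 0.25, adjusted p = 0.984) in CAST, and the interaction of 0.64 (SE 0.20) had an adjusted p of 0.0934.

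C1qa, C1qb and C1qc encode the chains of C1q, the recognition part of C1, and lie within 1 cluster on chromosome 4. In liver, macrophages (Kupffer cells) are their known source. C1qb and C1qc were higher in B6 females than in B6 males, with log2 fold changes of -0.62 (SE 0.14, adjusted p = 0.0121) and -0.66 (SE 0.14, adjusted p = 0.0069), and C1qa stood at -0.28 (SE 0.15, adjusted p = 0.318). In CAST, the 3 genes had log2 fold changes between -0.53 and -0.51, and adjusted p-values between 0.185 and 0.281. In 1 CAST female (replicate 5) C1qa, C1qb and C1qc were at 4.86, 5.24 and 5.77 FPKM, above the other CAST females, and without that liver the 3 CAST values were -0.33, -0.31 and -0.24. All 3 were higher in B6 than in CAST in both sexes, by 1.38 to 1.76 on the log2 scale (adjusted p at most 2.45e-06), with no overlap of livers.

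Macrophage markers moved with the C1q genes. Of the 10 markers listed, 9 were in the table, and 7 of the 9 (Clec4f, Cd5l, Timd4, Emr1, Csf1r, Cd68 and Folr2) were higher in B6 females than in B6 males, where 3.56% of all genes tested were; the call of Cd68 was lost without any of 8 single livers. All 9 were higher in B6 than in CAST in both sexes, beside 20.3% of all genes in males and 20% in females. The call of Aif1 in males was lost without B6 male 2 or CAST male 3. Their summed level was 14.6 to 28.1 FPKM in B6 males, 33.6 to 39.4 in B6 females, 4.78 to 11.7 in CAST males and 7.40 to 23.9 in CAST females, with none of the 9 at 0 in every liver. Clec4f, a receptor of Kupffer cells, was at 9.77 FPKM in CAST female 5 and at 3.18 to 3.97 FPKM in the other CAST females. Endothelial markers stood apart in the same liver: their sum was 50.8 FPKM, beside a median of 24.5 over the CAST females, with Pecam1 at 3.10 (others 1.26 to 1.44) and Kdr at 5.98 (others 1.64 to 2.34). In RNA of whole liver, fewer macrophages and less RNA per macrophage cannot be told apart, and the part of these cells, or of endothelial cells, in the C1q differences was not tested. Cfp, which encodes properdin, the stabiliser of the alternative convertase that myeloid cells are known to make, was also higher in B6 females, with a log2 fold change of -0.64 (SE 0.11, adjusted p = 0.00161), and stood at -0.55 (SE 0.16, adjusted p = 0.0575) in CAST. CAST female 5 had the highest Cfp, 5.87 FPKM against at most 3.86 in the other CAST livers, and without it the CAST value was -0.38 (adjusted p = 0.131), while leaving out CAST female 1, CAST female 3 or CAST male 2 instead gave adjusted p-values of 0.0379, 0.0354 and 0.0287.

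**Figure D3:**
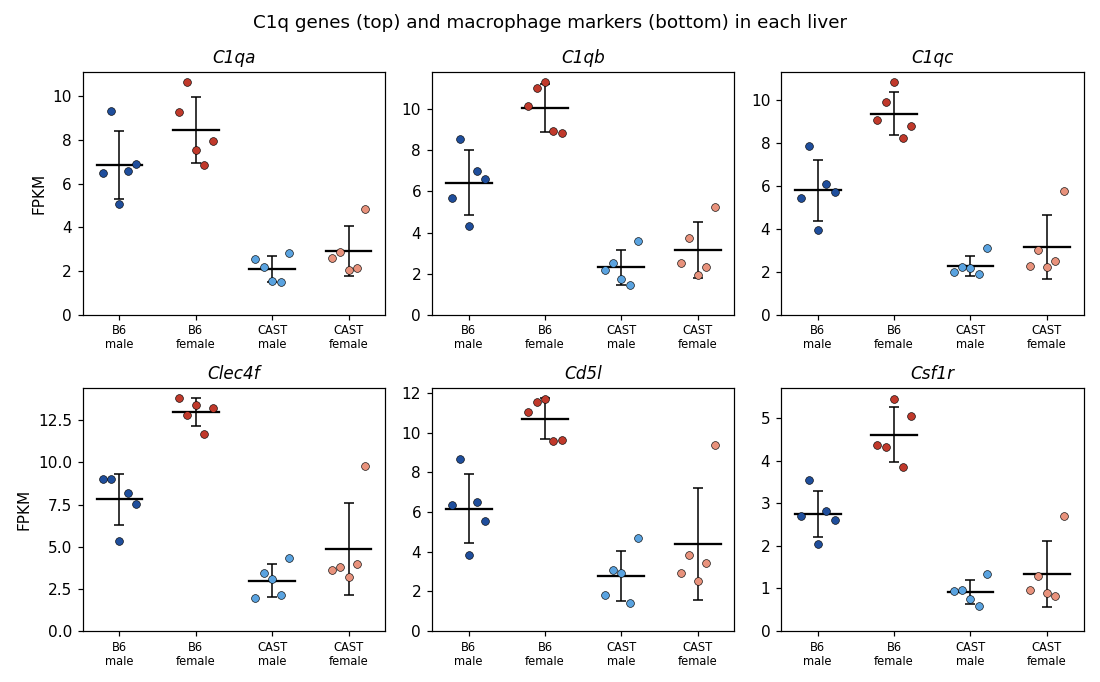
FPKM of the 3 C1q genes (top) and of 3 macrophage markers (bottom) in each of the 20 livers; points are livers, thick lines are group means, and thin bars are SD (n = 5). The groups have the same order in all 6 panels, with B6 females highest and CAST males lowest, and CAST female 5 is the highest CAST liver in each.

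Of the 4 members of the C3 and alternative pathway group, C3 and Cfp passed for sex in B6. C3 is the hub on which all routes of complement activation meet. It was at 586, 778, 657, 616 and 572 FPKM in B6 males and at 1103, 1003, 1229.6, 1291 and 1068 FPKM in B6 females. In CAST, it was at 7.99, 8.25, 6.46, 7.79 and 6.71 FPKM in males and at 8.15, 8.32, 7.66, 7.19 and 8.39 FPKM in females. B6 females were thus all above B6 males, while the sexes overlapped in CAST. The log2 fold change was -0.80 (SE 0.10, adjusted p = 3.79e-05) in B6 and -0.17 (SE 0.08, adjusted p = 0.292) in CAST, and the interaction was -0.62 (SE 0.14, adjusted p = 0.0122). Each CAST liver still held at least 674 reads of C3. Cfb, which encodes factor B, the alternative pathway counterpart of C2, had log2 fold changes of -0.14 (adjusted p = 0.350) and -0.22 (adjusted p = 0.249).

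Cfd was near 0 in most livers and high in 1 liver of each of 3 groups: 1.86 FPKM in B6 female 1, 0.614 in CAST male 1 and 2.26 in CAST female 4, against at most 0.186 in any other liver. Its log2 fold changes of male over female were -1.95 (SE 1.04, adjusted p = 0.309) in B6 and -2.40 (SE 1.56, adjusted p = 0.441) in CAST, and the livers of the sexes overlapped in both. The same 3 livers had the highest values of Adipoq (0.266, 0.0840 and 0.558 FPKM), which encodes the fat cell hormone adiponectin, and Plin1, a coat protein of fat droplets, was at most 0.00621 FPKM in any other liver. Of the other 4 fat cell markers, Lep was listed at 0 in B6 female 1 and Retn in CAST male 1, and the 3 livers were not the 3 highest for Cidec or Fabp4. The part of fat cells in the Cfd values was not tested.

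The complement inhibitors Cfi, C4bp, Vtn and Serping1 varied less. C4bp, a cofactor in the breakdown of C4b, was at 128 ± 8.29 FPKM (SD, n = 5) in B6 males and 107 ± 10.05 in B6 females, and at 144 ± 29.1 in CAST males and 85.1 ± 10.9 in CAST females. The livers of the sexes did not overlap in either strain. The difference passed in CAST (log2 fold change 0.68, SE 0.14, adjusted p = 0.00422) and was just short in B6 (0.27, SE 0.08, adjusted p = 0.0548), with an interaction of -0.40 (SE 0.17, adjusted p = 0.28). Without B6 female 1 or B6 female 2, C4bp also passed in B6 (adjusted p = 0.0376 and 0.0253). The log2 fold changes of the other 3 inhibitors lay between -0.17 and 0.25, with adjusted p-values of at least 0.251. The upper limit was Serping1 in CAST, which stood at 0.06 (adjusted p = 0.854) without CAST male 5.

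Among the 11 clotting factor genes, the sex differences that passed were all towards females and at most 1.46-fold: F5, F7 and F13b in B6, and F7 and F13b in CAST. F7, the protease that starts clotting together with tissue factor, was at 23.2 ± 2.20 FPKM (SD, n = 5) in B6 males and 30.7 ± 1.93 in B6 females, and at 32.5 ± 3.03 in CAST males and 44.9 ± 3.38 in CAST females. Its log2 fold change was -0.38 (SE 0.08, adjusted p = 0.00821) in B6 and -0.54 (SE 0.10, adjusted p = 0.00116) in CAST. F10 and Proz, which lie beside F7 on chromosome 8 (F10 at 1.499 kb from it), had values of -0.01 and -0.17 in B6 and of -0.29 and -0.17 in CAST, with adjusted p-values of at least 0.133. Without CAST female 5, F10 passed in CAST with -0.37 (adjusted p = 0.0278). F13b, the carrier subunit of the factor that cross-links fibrin, was at 39.6 ± 2.57 and 52.8 ± 3.39 FPKM in B6 males and females and at 48.2 ± 1.61 and 57.3 ± 2.87 in CAST males and females. It passed with -0.39 (SE 0.08, adjusted p = 0.00384) in B6 and -0.33 (SE 0.09, adjusted p = 0.0279) in CAST, the latter lost without any of 7 single livers. F5, the cofactor of thrombin formation, passed in B6 with -0.39 (SE 0.09, adjusted p = 0.00924) and stood at -0.09 (SE 0.12, adjusted p = 0.767) in CAST. For F2, F9, F10, F11 and F12 the log2 fold changes lay between -0.29 and 0.19. F2 passed in CAST without CAST female 5 (-0.32, adjusted p = 0.0479), and F9 in B6 without B6 male 2 (-0.25, adjusted p = 0.0476).

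The fibrinogen chains Fga, Fgb and Fgg, which lie side by side on chromosome 3, were decided by 1 liver in CAST. In the 20 livers, Fgb ranged from 1139.7 to 1486 FPKM in B6 males, from 1134 to 1429 in B6 females and from 759 to 1003 in CAST females. In CAST males it was at 1003, 975, 853, 945 and 2374 FPKM, the last in replicate 5. Fga was at 1127 FPKM and Fgg at 2138 in that liver, against at most 580.4 and 986 in the other CAST males. The same liver had 2151 FPKM of Saa1, which encodes serum amyloid A1, an acute phase protein, where the other 4 CAST males had 2.37 to 11.5. CAST female 2 had 163 FPKM of Saa1, with Fgb at 1003. The log2 fold changes between CAST males and females were 0.27 to 0.33 for the 3 chains (adjusted p = 0.464 to 0.498), and without CAST male 5 they were -0.08 to -0.04 (adjusted p = 0.763 to 0.889). In B6 they were 0.05 to 0.10 (adjusted p = 0.585 to 0.825).

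**Figure D4:**
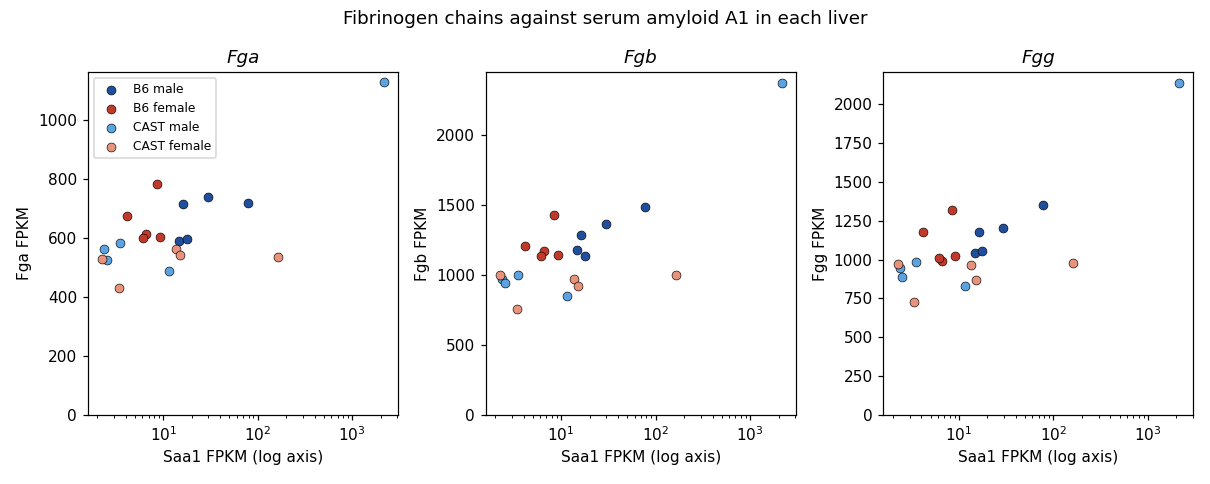
FPKM of the fibrinogen chains Fga, Fgb and Fgg against FPKM of Saa1 (log axis) in the 20 livers, coloured by group; each point is 1 liver. CAST male 5, with 2151 FPKM of Saa1, stands apart at the upper right of each panel.

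Of the contact and kinin genes, Kng2, which encodes a kininogen, was higher in B6 females (47.1 ± 4.54 against 35.2 ± 2.54 FPKM, SD, n = 5, log2 fold change -0.40, SE 0.09, adjusted p = 0.00691) and stood at -0.26 (SE 0.10, adjusted p = 0.179) in CAST. Kng1 and Klkb1, which encodes plasma prekallikrein, had values from -0.28 to -0.05 and did not pass. The lower limit was Kng1 in CAST, which was at -0.42 (adjusted p = 0.0288) without CAST male 5. In B6, Kng1 passed, higher in females, with DESeq2, with edgeR's filter on low counts and with limma on FPKM. Of the 10 anticoagulants, fibrinolysis genes and inhibitors, Pros1 passed, in CAST. Pros1 encodes protein S, the cofactor of activated protein C and a partner of C4b-binding protein in plasma. It was at 5.10 ± 0.853 FPKM in CAST males and 3.38 ± 0.830 in CAST females (log2 fold change 0.53, SE 0.14, adjusted p = 0.0232), with overlapping livers, and at 9.19 ± 1.89 and 8.65 ± 1.02 in B6 (0.11, SE 0.12, adjusted p = 0.656). That call was lost without CAST male 5 (adjusted p = 0.0621) and without any of 3 other single livers. The other 9, among them Serpinc1 (antithrombin), Plg (plasminogen) and Hrg, had log2 fold changes between -0.24 and 0.24 in the 2 strains.

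The second comparison was that of the strains within each sex. It carries a limit of design: the authors mapped CAST reads to another genome than B6 reads, so strain and mapping genome cannot be told apart. In males 28 of the 49 members passed, 15 higher in B6 and 13 higher in CAST, and in females 24 passed, 12 in each direction. The background was 38.4% of all genes tested in males (20.3% higher in B6 and 18.1% higher in CAST) and 39.9% in females (20% in each direction), and 53.6% and 56.5% among genes with a mean of at least 1 FPKM. In both sexes 23 members passed in the same direction, 12 higher in B6 and 11 higher in CAST, beside 28.7% of all genes tested and 41.3% of those with a mean of at least 1 FPKM. With a fold change above 2, 8 passed in males (7 higher in B6) and 10 in females (8 higher in B6), beside 23.8% and 24.4% of all genes.

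The strain differences of 4 members exceeded 32-fold in both sexes. C3, C2 and C9 were higher in B6 and C7 was higher in CAST. The threshold was set after these values were seen. Of 2836 genes with at least 10 FPKM in 1 group, 7.26% differed by as much, among them 4 of the 44 members at that level. C9 was higher in B6 by 8.83 in males (SE 0.16, adjusted p = 3.38e-25) and by 7.41 in females (SE 0.15, adjusted p = 2.31e-24). C2 was higher by 6.94 in males (SE 0.14, adjusted p = 2.06e-24) and by 6.30 in females (SE 0.14, adjusted p = 5.05e-24). C3 was higher by 6.46 in males (SE 0.12, adjusted p = 4.12e-25) and by 7.08 in females (SE 0.13, adjusted p = 1.95e-25). For each of the 3, every B6 liver was above every CAST liver.

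C7, the component that anchors the growing complex to the membrane, had the opposite pattern. It was at 0.127, 0.275, 0.105, 0.0908 and 0.0716 FPKM in B6 males and at 0.0770, 0.0775, 0.117, 0.210 and 0.122 FPKM in B6 females. In CAST, it was at 17.7, 17.6, 19.9, 18.1 and 18.8 FPKM in males and at 19.5, 16.1, 16.3, 15.5 and 15.9 FPKM in females. The CAST livers were all far above the B6 livers, with log2 fold changes of B6 over CAST of -6.96 (SE 0.21, adjusted p = 6.7e-21) in males and -7.19 (SE 0.22, adjusted p = 1.32e-20) in females. The B6 values rest on 7 to 50 reads per library.

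The exon length that FPKM and counts imply together, CAST over B6, was 0.979 to 0.992 for the 49 members, so the 2 tables used nearly the same length for each member in both strains. The expressed genes on either side of these 4 members differed less between strains, except for Gpr108 beside C3. Cfb, at 0.086 kb from C2 on chromosome 17, had log2 fold changes of B6 over CAST of 0.13 in males and 0.03 in females, and Ehmt2, on the other side of C2, had -0.22 and -0.24. C6, the expressed gene next to C7 at 173 kb, had -0.25 and 0.57. Beside C9, Dab2 had 0.35 and 0.80 and Rictor -0.08 and 0.24. Beside C3, Gpr108 (6.78 kb away) had 8.17 and 7.87, while Crb3 on the other side had -0.56 and -0.72.

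The other strain differences were smaller. In each direction the 3 largest were C9, C3 and C2 towards B6, and C7, Hrg and C8b towards CAST. Hrg, a histidine-rich plasma glycoprotein that binds heparin and plasminogen, was at 221, 195.1, 207, 194.6 and 215 FPKM in B6 males and at 222, 232, 233, 243 and 255 FPKM in B6 females. In CAST, it was at 377, 380.0, 358, 393 and 419.6 FPKM in males and at 455, 439, 379, 445 and 413 FPKM in females. The strains did not overlap, with log2 fold changes of -0.87 (SE 0.09, adjusted p = 1.89e-09) in males and -0.93 (SE 0.09, adjusted p = 5.29e-10) in females. C8b was lower in B6 by -0.81 in males (SE 0.19, adjusted p = 0.00133) and -1.15 in females (SE 0.20, adjusted p = 2.05e-05), and C8a by -0.44 (SE 0.15, adjusted p = 0.0182) and -0.69 (SE 0.15, adjusted p = 0.000384). Without CAST male 5 the difference of C8a in males missed the threshold (adjusted p = 0.0512). The strain difference of C6 was -0.25 in males (SE 0.30, adjusted p = 0.531) and 0.57 in females (SE 0.32, adjusted p = 0.16). In females single livers moved it in both directions: it was 0.97 (adjusted p = 0.0113) without CAST female 3 and 0.34 (adjusted p = 0.391) without CAST female 4.

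**Figure D5:**
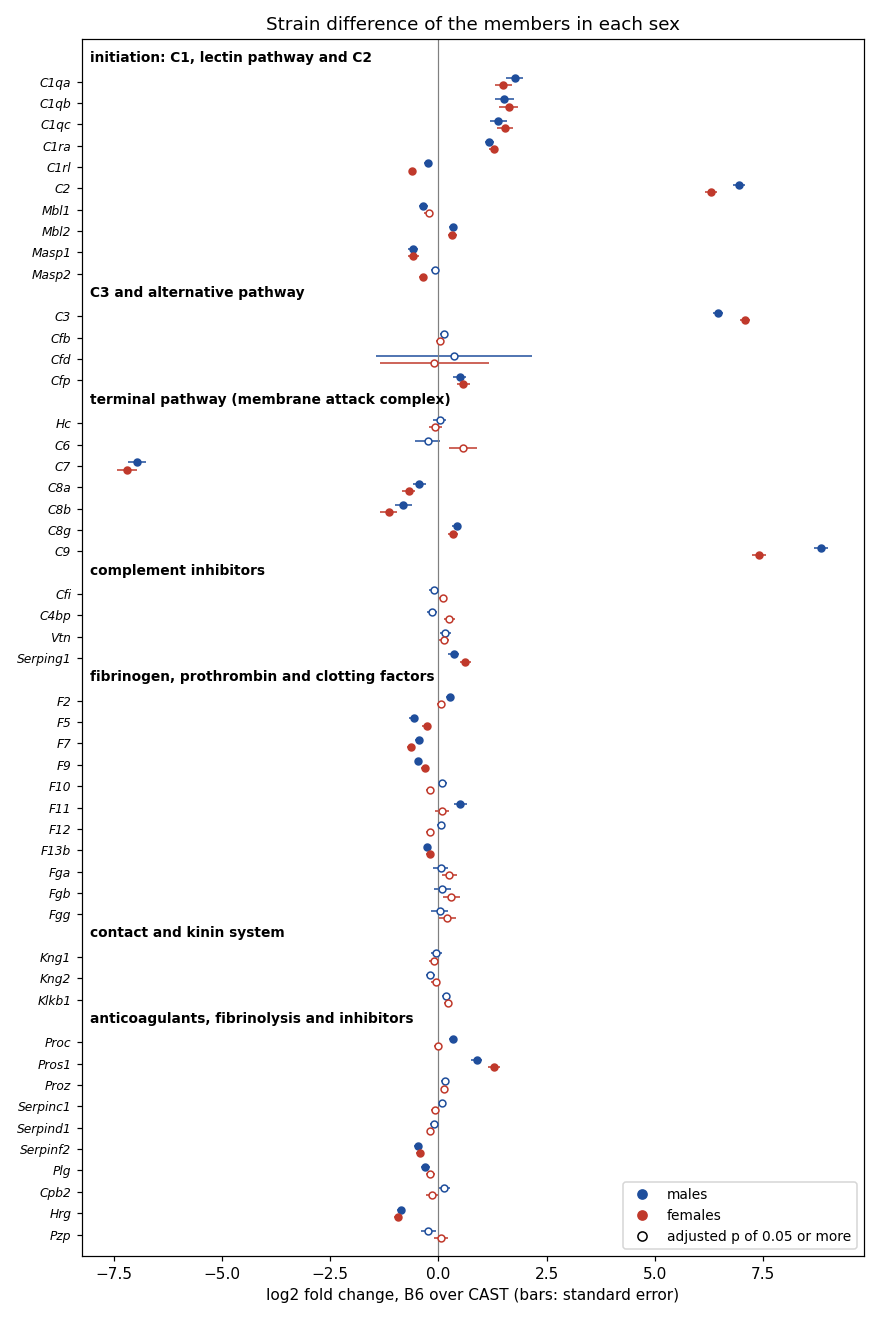
Log2 fold change of B6 over CAST expression for the 49 members in males (blue) and females (red), grouped by role; bars are standard errors, and filled points passed an adjusted p under 0.05. C2, C3 and C9 stand far to the B6 side and C7 far to the CAST side, while the contact and kinin genes lie close to equal levels.

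By role, the initiation group differed between strains in 9 of 10 members in each sex, 6 higher in B6 and 3 higher in CAST, where 53.6% of all genes with a mean of at least 1 FPKM passed in males and 56.5% in females. C1ra was higher in B6 by 1.18 in males and 1.27 in females, and Masp1, a protease of the lectin pathway, was lower in B6, by -0.60 and -0.58. Of the 11 clotting factor genes, F5, F7, F9 and F13b were higher in CAST in both sexes, with log2 fold changes of -0.63 to -0.20, where the calls of F5 and F13b in females were each lost without any of 7 single livers. F2 and F11 were higher in B6 in males. Among anticoagulants and inhibitors, Pros1 was higher in B6, by 0.88 in males (SE 0.14, adjusted p = 4.92e-06) and 1.29 in females (SE 0.14, adjusted p = 7.35e-09), and Serpinf2, the inhibitor of plasmin, was higher in CAST, with -0.46 and -0.42. Of the inhibitors of complement, Serping1, the C1 inhibitor, was higher in B6 by 0.35 in males (adjusted p = 0.0358) and by 0.62 in females (adjusted p = 0.000335). The call in males was lost without any of 10 single livers. Without CAST male 5 the difference of Serping1 in males was 0.51 (adjusted p = 9.36e-05). The contact and kinin genes had values between -0.19 and 0.22, with adjusted p-values of at least 0.0584. The upper limit was Klkb1 in females. It passed, higher in B6, without B6 female 2, CAST female 3 or CAST male 2 (adjusted p = 0.0368, 0.0401 and 0.0443). Klkb1 also passed in females with DESeq2, with other size factors and with limma on FPKM. Kng2 passed in males, higher in CAST, with limma on log2(FPKM + 0.1).

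Fibrinogen again depended on CAST male 5. With all livers, Fga, Fgb and Fgg had log2 fold changes of B6 over CAST of 0.03 to 0.08 in males (adjusted p = 0.778 to 0.936). Without that liver they were 0.32 for Fga (adjusted p = 0.0215), 0.46 for Fgb (adjusted p = 0.0012) and 0.36 for Fgg (adjusted p = 0.0132), and all 3 were higher in B6. Vtn (0.27, adjusted p = 0.0283) and Cpb2 (0.32, adjusted p = 0.00877), which encodes an inhibitor of fibrinolysis, also passed without it. In females the 3 fibrinogen chains stood at 0.20 to 0.30 (adjusted p = 0.246 to 0.418), with no overlap of livers between the strains. Without CAST male 5, which enters the estimate of the spread, Fgb passed in females too (0.28, adjusted p = 0.0287).

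Other genes of the cascades were counted from lists of neighbours in the pathway. Of 26 other complement genes tested in B6, 2 were higher in males and 8 in females, beside 3.99% and 3.56% of all genes tested. Of 25 tested in CAST, 1 was higher in each sex, a share close to that over all genes (2.35% higher in males and 3.3% in females). C4a, known as the sex-limited protein, a near copy of C4 whose reads are hard to assign, was higher in males by 3.83 in B6 (SE 0.42, adjusted p = 9.94e-06) and by 3.78 in CAST (SE 0.32, adjusted p = 1.94e-07), at 3.60 ± 2.62 and 0.247 ± 0.0809 FPKM in B6 males and females. C4b, which encodes C4, was at 97.0 and 97.5 FPKM in B6 males and females, with log2 fold changes of 0.01 (adjusted p = 0.950) and 0.41 (adjusted p = 0.291). In CAST male 5 C4b was at 221 FPKM, above the other CAST males (94.6 to 118) and the CAST females (73.4 to 101.9). Colec10, a soluble lectin, was higher in females by -1.12 in B6 (adjusted p = 2.75e-06) and -0.64 in CAST (adjusted p = 0.0237). CAST female 5 was at 9.38 FPKM, against 4.17 to 4.95 in the other CAST females, and without it Colec10 had -0.41 in CAST (adjusted p = 0.0285). The CAST call was lost without either of 2 other livers, CAST male 1 (adjusted p = 0.0633) and CAST male 2 (adjusted p = 0.0544). C1s1, which is listed in place of C1s and is no member by name, had 0.12 (adjusted p = 0.443) in B6 and 0.51 (adjusted p = 0.00290) in CAST.

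Of 36 other coagulation and fibrinolysis genes tested in B6, 4 were higher in males, and of 35 tested in CAST, 7 were higher in males and 1 (Serpinf1) in females, beside 7.55% of all genes passing in B6 and 5.65% in CAST, or 14.8% and 10.8% of those with a mean of at least 1 FPKM. Past 2-fold in both strains were Serpina1e, a copy of the antitrypsin gene whose reads may be split among near-identical copies (2.67 in B6 and 2.01 in CAST, adjusted p = 0.000494 and 3.01e-06), and Serpine2, an inhibitor of thrombin (1.64 and 1.20, adjusted p = 0.000242 and 1.43e-06). F2r, the thrombin receptor, was higher in B6 males by 1.75 (adjusted p = 2.15e-06) and stood at -0.44 (adjusted p = 0.198) in CAST, with an interaction of 2.20 (SE 0.27, adjusted p = 9.08e-06). Serpina5, the protein C inhibitor, was at 0.469 and 0.177 FPKM in CAST males and females (1.24, adjusted p = 0.0385), a call lost without any of 6 single livers.

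Of 20 acute phase genes, 3 were higher in B6 males, 10 were higher in B6 females, and 1 was higher in CAST males, where of all genes tested 3.99% were higher in B6 males, 3.56% in B6 females and 2.35% in CAST males. Saa1 and Saa2, which are near copies of each other, were higher in B6 males by 2.18 (adjusted p = 0.00117) and 1.83 (adjusted p = 0.00955). B6 male 4 stood apart, with Saa1 at 77.9 FPKM (other B6 males 14.8 to 29.5) and Saa2 at 37.6 FPKM (others 4.46 to 10.5). Without it the values were 1.53 for Saa1 (adjusted p = 0.000105) and 1.09 for Saa2 (adjusted p = 0.00582). Orm2, Orm3, Lcn2, Mt1 and Mt2, the genes of acid glycoproteins, lipocalin 2 and metallothioneins, were higher in B6 females by -2.91 to -1.52. Saa4, a serum amyloid A gene expressed in the absence of inflammation, was higher in males of both strains (0.57 in B6, adjusted p = 0.00321, and 1.22 in CAST, adjusted p = 0.00849). Orm2 was at 159.6 FPKM in CAST male 5 and at 0.936 to 7.69 in the other CAST males.

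Markers of the other cell types that liver RNA can hold were summed per liver and compared by exact two-sided permutation tests, adjusted over 40 comparisons of 10 lists, for which the smallest p of 5 against 5 livers is 0.00794. Beside the macrophage markers, the sums of endothelial and of stellate cell and fibroblast markers were higher in B6 females than in B6 males (exact p = 0.00794, adjusted 0.0244, for each). The endothelial markers that passed were Cdh5, Stab2, Clec4g and Tek, and those of stellate cells and fibroblasts Lrat, Dcn, Reln and Rgs5. In each list of 8 the other 4 did not pass, and the call of Tek was lost without any of 3 single livers. The summed hepatocyte markers rested mostly on Alb, the albumin gene, and were higher in females than in males of both strains and in B6 males than in CAST males (adjusted exact p = 0.0244 for each). Gene by gene, of 7 hepatocyte markers Alb was higher in B6 females, Apoa1 was higher in B6 males, a call lost without any of 8 single livers, and 5 did not pass. In CAST, Alb and Cps1 were higher in females and 5 did not pass, and between the males of the strains Apoa1 and Ttr were higher in B6, Apob was higher in CAST and 4 did not pass. The summed neutrophil and monocyte markers, of at most 2.70 FPKM, were higher in B6 (adjusted exact p = 0.0454 in males and 0.0244 in females) and rested mostly on Ly6c2 there. Of these 7 genes, Ly6c2 and Ccr2 were higher in B6 in both sexes and Csf3r in females, Mpo was higher in CAST in both sexes, and 4 in males and 3 in females did not pass. The calls of Mpo in males and Ccr2 in females were lost without any of 7 and 6 single livers, and that of Mpo in females without CAST female 4. Erythroid markers, with the 4 globin genes listed at 0, rested mainly on Alas2 and were higher in B6 males than in B6 females and higher in B6 than in CAST (adjusted exact p = 0.0244). For the sums of lymphocyte, biliary and adipocyte markers, the adjusted exact p was at least 0.0595 in each comparison. Gene by gene, 5 of 8 lymphocyte markers (Cd3e, Cd3g, Cd79b, Ms4a1 and Nkg7) were more than 2-fold higher in B6 in both sexes. Past 2-fold in either direction were 23.8% of all genes tested in males and 24.4% in females. The lymphocyte markers together reached only 0.496 to 3.44 FPKM per liver. Cd2 was higher in CAST in both sexes, and Cd79b was higher in B6 females than in B6 males. Of the biliary markers, Krt7 and Sox9 were higher in B6 in both sexes, Spp1 was higher in B6 in males, and Sox9 was higher in B6 males than in B6 females. Of the adipocyte markers, Cidec alone passed, higher in CAST females than in B6 females. The calls between females of Cd3e and Sox9 were lost without any of 3 and 8 single livers, and that of Spp1 between males without B6 male 4. The sum of the acute phase genes was higher in B6 females than in CAST females (adjusted exact p = 0.0244).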

How the data were processed

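Livers of 20 mice were profiled by polyA RNA-seq with reads of 50 nt. The authors mapped B6 reads to mm9 and CAST reads to a genome built from mm9 with CAST variants, using TopHat2, and deposited the counts of featureCounts per gene in 1 table for each strain. The authors also deposited FPKM values of all 20 livers in 1 table. The count tables further hold the authors' own comparisons (fold changes and p-values), which were not used, and 24 other columns of values per liver or group were not used.

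Sex differences were tested within each strain on the deposited counts with edgeR 4.0.16 (R 4.3.3), after TMM normalization and with genes of at least 1 read, by the quasi-likelihood test with Benjamini-Hochberg adjustment over all genes tested. Strain differences and the interaction came from 1 fit of all 20 livers over 25779 genes, from which 2028 genes listed in only 1 strain's table were left out. The p-values measure the spread between mice. Alternatives used DESeq2 1.42.0, limma 3.58.1 on log2(FPKM + 0.1) and log2(FPKM + 1), other size factors, filters and each liver left out. Marker sums were compared by exact permutation tests.

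The members and lists were chosen with earlier results of these data known. Given per liver were members past 2-fold for sex, members with an interaction, and the 3 largest strain differences in each direction by the smaller fold of the 2 sexes. Group means were given for other members that passed for sex in both strains, the 5 most abundant, the least abundant, and the smallest p for sex in each role. Of the other pathway lists, genes past 2-fold for sex were named. Genes outside this rule were chosen after their values were seen.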

Additional observations from a re-analysis of the deposited data

Results flagged for a closer look

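Of 84 groups of 5 livers, over 21 members, 13 held a liver far from the other 4 by Dixon's criterion, where chance gives about 1 in 20. CAST male 5 stood apart for Fgb (2374 FPKM, others 853 to 1003), Fgg (2138, others 827 to 986), Fga (1127, others 488 to 580.4) and Pzp (1146, others 519 to 644), and had 2151 FPKM of Saa1. Fga was at 431 FPKM in CAST female 5 (others 529 to 562), and Pros1 at 4.85 FPKM in the same liver (others 2.82 to 3.17). Fgb was at 1429 FPKM in B6 female 2 (others 1134 to 1206). C8b was at 240.5 FPKM in CAST male 3 (others 158 to 179.6). C7 was at 0.275 FPKM in B6 male 2 (others 0.0716 to 0.127) and at 19.5 in CAST female 1 (others 15.5 to 16.3). Cfd was at 1.86 FPKM in B6 female 1, 0.614 in CAST male 1 and 2.26 in CAST female 4.

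The sex difference of C3 and of C9 differed between the strains by the interaction test, with -0.62 (edgeR quasi-likelihood test, adjusted p = 0.0122) and 1.43 (adjusted p = 8.45e-05) on the log2 scale, B6 over CAST. Both genes are far lower in CAST, where C9 had 12 to 62 reads per liver.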

How the results depend on the processing

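Counts of members past the threshold, with all livers 17 and 9 for sex in B6 and CAST, 28 and 24 for strain in males and females and 2 for the interaction, ranged over the livers left out in turn from 15 to 19, 6 to 10, 26 to 32, 22 to 30 and 2 to 2. With a fold change above 2 also required they were 4, 2, 8, 10 and 1. Under every leave-one-out 15, 6, 24, 22 and 2 of the calls remained. Lost in at least 1 were C1rl and Hc for sex in B6, C1ra, F13b and Pros1 for sex in CAST, C1rl, C8a, Serping1 and F2 (without CAST male 1, adjusted p = 0.0576) for strain in males, and F5 and F13b for strain in females. Under the other alternatives, F5 (8 of 10, DESeq2 among them) and F13b (7 of 10) were lost for strain in females, Hc (4 of 10) for sex in B6, Pros1 (3 of 11) and F13b (2 of 11) for sex in CAST, and C8a (1 of 10) for strain in males. DESeq2 called 24 members for sex in B6. No direction of a called member reversed. The main fits did not pair livers by replicate number. Same-numbered livers of the 2 sexes had deviations correlated by -0.04 to 0.30 in CAST and by -0.02 to 0.22 in B6. For differently numbered livers the mean correlations were -0.07 to 0.009 in CAST and -0.06 to 0.005 in B6. These values do not settle whether the replicate number marks a pairing. With the number as a replicate block, 19 members passed for sex in CAST (8 higher in males, 11 in females), in a fit whose residual degrees of freedom after moderation were 98888, against 18.8 without the block. With the block and edgeR's filter on low counts, an alternative chosen after seeing the data, 13 passed. C1qa, C1qb, C1qc and Cfp passed for sex in CAST, higher in females, with the block both with and without that filter. Without the 2 CAST livers of high Saa1, also chosen after seeing the data, the counts were 8 for sex in CAST, 32 and 27 for strain and 2 for the interaction. Depth limits C2, C7 and C9 in the strain with few reads.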
